A study of Eisenia fetida with 15 samples.

Results

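The comparison described here is between 4 libraries of the earthworm *Eisenia fetida* that held most of the unigene First_Contig3267, whose best protein match is destabilase I of the medicinal leech, and the 11 other libraries of the same 15. The members are 0d-7d-2, 30d-7d-1, 30d-28d-3 and control-2, 1 library from each of 4 conditions. They were chosen from expression, so every difference between these 4 and the 11 is a description and carries no test. At the edge of the choice, destabilase I stood at 133 FPKM in 0d-7d-2, the lowest member, and at 1.13 FPKM in 30d-28d-1, the highest of the others. FPKM is the number of sequenced fragments scaled to the length of the unigene and the size of the library, and a unigene is a contig of a transcriptome assembled without a genome.

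Adult worms were exposed to lindane, an organochlorine insecticide, at a nominal 2.4 mg/kg in soil that was fresh or aged for 30 d, for 7 d or 28 d, and 1 further group was sampled unexposed. RNA was taken from body sections, with 3 libraries for each of 5 conditions. The labels name each triplet of libraries in 2 ways that disagree. A code gives soil aging and then exposure, as in 30d-7d, and calls 1 triplet control with no dose or time, while the treatment text of the same libraries is displaced by 1 triplet. Under the text, the triplet coded 0d-7d was sampled at 0 d of exposure, 0d-28d had 7 d and 30d-7d had 28 d in soil aged 0 d, and 30d-28d had 7 d and control had 28 d in soil aged 30 d. Libraries are called by code here, and both namings keep the same 3 libraries together. The labels do not say which stretch of the body a section came from, nor whether libraries of 1 triplet are different animals, and a p-value therefore speaks only of how these libraries vary.

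Destabilase is an invertebrate-type lysozyme first known from leech saliva, where it cuts isopeptide bonds in stabilized fibrin and also breaks bacterial cell walls. Along the body of an earthworm the pharynx, crop and gizzard lie in front, the clitellum is a glandular girdle that secretes the cocoon, and the intestine with its covering of chloragogen tissue runs through the rest. Hox genes are transcription factors used in ordered blocks along this axis in annelids. The Post2 type and the related Cdx type, also named Caudal, belong to the posterior end.

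Between 13182058 and 28022746 reads per library were counted on 241846 unigenes, and the 4 libraries, with 14835227 to 22313887 reads, lay inside that range. Of these unigenes 101090 passed the filter on low counts and are called tested here. Tropomyosin (contig_618), a muscle filament protein, was present in all 15 libraries, at 241 to 349.9 FPKM in the 4 and 158 to 1408 FPKM in the 11. Unigenes of one name can be pieces or near-identical copies of one transcript, and how reads shared by such copies were counted is not given in the sources used here, so counts of unigenes are not counts of genes.

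In the 4 libraries 1551 tested unigenes had more FPKM in each member than in each of the 11 others, which is 1.53% of the tested unigenes. These are called shared high unigenes below. A unigene could pass the filter on low counts through its reads in the 4 alone, and 287 of the 1551 had at most 3 reads in each of the 11. The tested unigenes of a list, and of the whole, thus depend in part on the choice of members. Shares of shared high unigenes given below are therefore descriptions only. They took 7.84% of the reads of 0d-7d-2, 19.4% of those of 30d-7d-1, 13.6% of those of 30d-28d-3 and 25.4% of those of control-2. In the 11 others they took between 0.479% and 0.95%. In bulk RNA of sections, more cells of a type and more RNA per cell cannot be told apart. Since each member was above all 11, each was also above both other libraries of its own triplet, where the labelled condition is the same. Against those mates alone 5443 unigenes, 5.38% of the tested, were higher in each member.

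**Figure D1:**
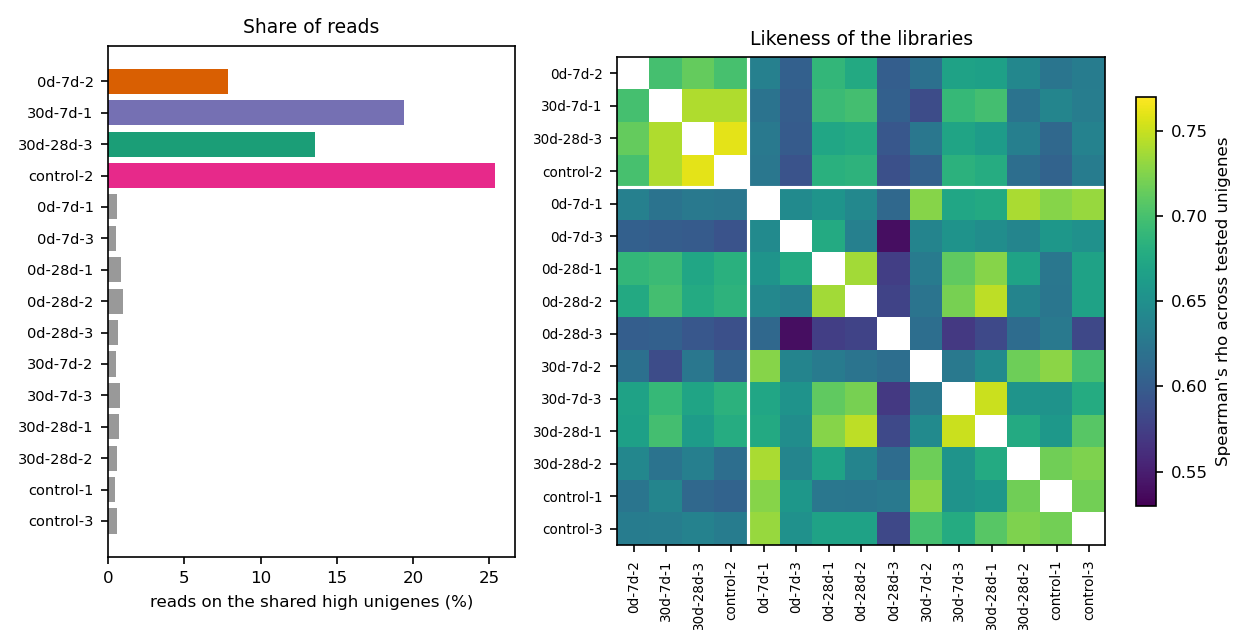
Left, percentage of each library's reads that fell on the 1551 shared high unigenes. Right, Spearman's rho of FPKM across the 101090 tested unigenes for each pair of libraries, with the 4 libraries first and white lines around them; the 6 pairs among the 4 lie between 0.699 and 0.76.

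The members also resembled each other over the whole transcriptome. Spearman's rho across the tested unigenes was between 0.699 and 0.76 for the 6 pairs among the 4, with a median of 0.727. It was between 0.586 and 0.691 for the 8 pairs of a member with a library of its own triplet, with a median of 0.633. Each member had another member as its closest library, 0d-7d-2 with 30d-28d-3, 30d-7d-1 with control-2, and 30d-28d-3 and control-2 with each other. These are descriptions across unigenes, which are not independent, of libraries chosen for likeness in expression, and no p is given. Pairs among the 11 ranged from 0.539 to 0.751, so some other pairs were as alike as the 4.

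At the lowest member, 653 of the shared high unigenes had at least 5 FPKM, which is 0.646% of the tested. Of these, 364 had a protein match and 116 a name other than uncharacterized or hypothetical. For 208 of the 653 the lowest member was at least 10 times the highest of the 11, and for 79 at least 100 times. The median of that ratio was 2.11, so most of them were separated by a small margin. A protein match was listed for 55.7% of the 653 and for 39.4% of the tested unigenes with a mean of at least 5 FPKM.

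Among destabilases and lysozymes, 3 of 14 tested unigenes were shared high, beside 1.53% of all tested unigenes. The first, First_Contig3267, is the unigene that chose the libraries. It had 133 FPKM in 0d-7d-2, 2939 in 30d-7d-1, 1274 in 30d-28d-3 and 3812 in control-2. The 11 others had between 0.025 and 1.13 FPKM, with at most 36 reads in a library against at least 4363 in a member. A second destabilase I unigene, contig_278720, had 21.1 FPKM in 0d-7d-2, 188 in 30d-7d-1, 265 in 30d-28d-3 and 994 in control-2, and at most 0.315 FPKM in the 11. The third, contig_299863, had 19.4 FPKM in 0d-7d-2, 250.2 in 30d-7d-1, 61.3 in 30d-28d-3 and 691 in control-2, and at most 0.326 FPKM elsewhere. All 3 were lowest in 0d-7d-2 and highest in control-2, and none of the 11 others came near the lowest member.

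The remaining destabilase I unigene went another way. contig_542 had 0.292 FPKM in 0d-7d-2, 65.1 in 30d-7d-1, 9.89 in 30d-28d-3 and 21.7 in control-2, and in the 11 it ran from 0.171 to 1146 FPKM around a median of 3.60. A pair of lysozyme unigenes shared this spread. contig_2847 reached 2547 FPKM and contig_59 reached 914 FPKM in 0d-28d-1, while the members held at most 118 and 35.5 FPKM of them. The 8 remaining lysozyme unigenes overlapped between the members and the others. The summed FPKM of all 14 was 511.7 to 5854 in the 4 and 444.0 to 4967 in the 11, so the name destabilase-rich holds for 3 unigenes and not for the family.

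**Figure D2:**
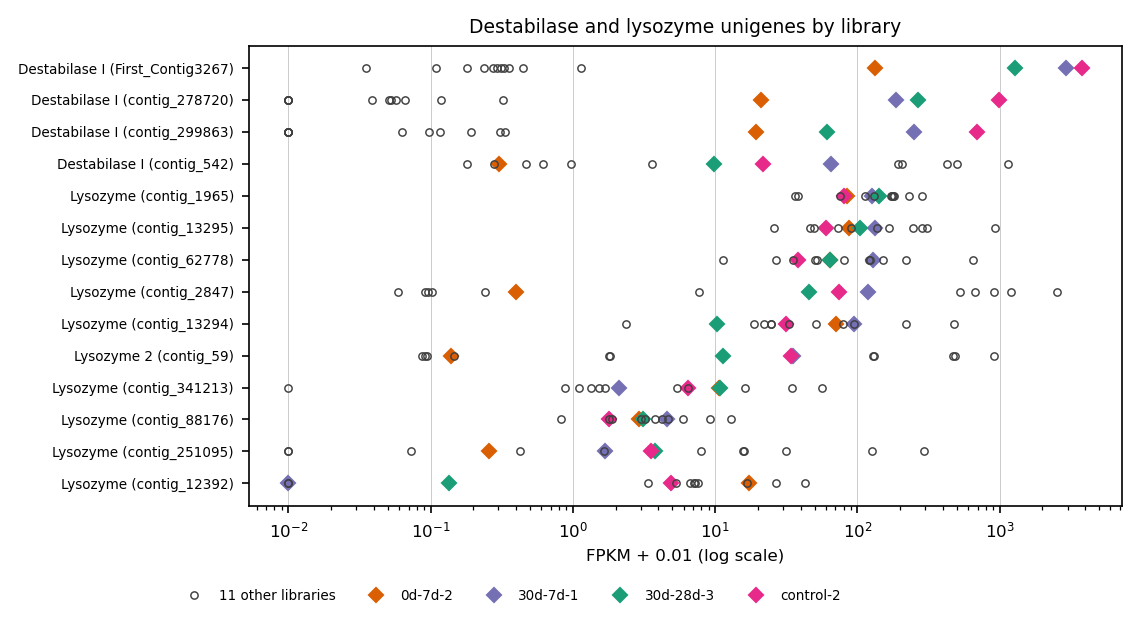
FPKM plus 0.01 on a log axis for the 14 tested destabilase and lysozyme unigenes, with 1 colored diamond for each of the 4 libraries and an open circle for each of the 11 others. The upper 3 destabilase I unigenes separate the 4 from the 11, and the other 11 unigenes do not.

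Chitinases, which cut the chitin of fungi and arthropods and also serve in defense, showed the same separation at higher levels. Of 18 tested unigenes 6 were shared high (33.3%, beside 1.53% of all tested). Chitinase contig_57366 had 1174 FPKM in 0d-7d-2, 9544 in 30d-7d-1, 2493 in 30d-28d-3 and 8137 in control-2, and at most 4.66 FPKM in the 11, so that its lowest member was 252 times the highest of the others. Chitinase contig_50532 had 1208 FPKM in 0d-7d-2, 3258 in 30d-7d-1, 1482 in 30d-28d-3 and 4894 in control-2, while no other library held more than 2 reads of it. Chitotriosidase-1 unigenes contig_37834 and contig_261981 had 382 to 4488 and 393 to 3176 FPKM in the members and at most 2.95 and 1.47 FPKM in the others. The summed level of the list was 6241 to 23915 FPKM in the 4 and 15.8 to 2055 FPKM in the 11. Other chitinases did not follow, as contig_2303 had 787 FPKM in 0d-7d-2, 75.3 in 30d-7d-1, 126 in 30d-28d-3 and 44.6 in control-2, and up to 476 FPKM in the 11. In this one 0d-7d-2 was the highest member.

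LBP/BPI proteins bind bacterial lipopolysaccharide in innate immunity, and 7 of 12 tested unigenes of the family were shared high (58.3%, beside 1.53% of all tested). The summed FPKM of the family was 1628 to 14885 in the 4 and 37.4 to 271.2 in the 11. This family was picked after its values were seen. First_Contig5865, matched to the protein of *Eisenia andrei*, had 734 FPKM in 0d-7d-2, 7117 in 30d-7d-1, 3285 in 30d-28d-3 and 6727 in control-2, against at most 4.96 FPKM in the 11. First_Contig6794, matched to a bactericidal permeability increasing protein of a mussel, had 373 FPKM in 0d-7d-2, 4782 in 30d-7d-1, 1966 in 30d-28d-3 and 3400.5 in control-2, and at most 2.03 FPKM elsewhere. contig_348164 had 345 to 3191 FPKM and at most 2.46 FPKM elsewhere. A unigene of low level, contig_360969, was highest in 0d-7d-2, with 61.1 FPKM in 0d-7d-2, 7.04 in 30d-7d-1, 25.9 in 30d-28d-3 and 2.25 in control-2. Of the wider list of coelomocyte and immune proteins 3 of 53 were shared high (5.66%). Lysenin-related protein 2, a pore-forming toxin of coelomocytes, had low levels in the members. Its most abundant unigene, contig_6068, had 253 FPKM in 0d-7d-2, 261 in 30d-7d-1, 114 in 30d-28d-3 and 194 in control-2, against a median of 602 FPKM in the 11. All 4 were below 10 of the 11, which ran from 388.5 to 1002 FPKM, and above 0d-28d-3 alone, which had 70.9 FPKM. contig_3651 of the same name had 58.7 to 143 FPKM in the 4 and 253 to 806 FPKM in the same 10, with 0d-28d-3 again the lowest at 45.6 FPKM. The log2 ratios of the medians were -1.43 and -1.60. A thioester-containing protein (contig_98072), of the complement family, was shared high at 38.5 to 246 FPKM.

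Ferritin stores iron, and metallothionein binds zinc, cadmium and other metals. On the list of chloragogen-type storage and heme proteins 9 of 26 tested unigenes were shared high (34.6%, beside 1.53% of all tested), and these were 7 ferritins and 2 metallothioneins. The summed FPKM of the 14 tested ferritins overlapped, at 3876 to 23712 in the 4 and 1092.5 to 7420 in the 11. Ferritin First_Contig2165 had 589 FPKM in 0d-7d-2, 7563 in 30d-7d-1, 2088 in 30d-28d-3 and 6809 in control-2, and at most 1.96 FPKM in the 11. Ferritins contig_237692 and First_Contig4346 had 586 to 5813 and 263 to 2189 FPKM in the members and at most 1.86 and 1.03 FPKM in the others. The ferritin that was most abundant over all libraries did not separate them. contig_63 had 1873 FPKM in 0d-7d-2, 1384 in 30d-7d-1, 1863 in 30d-28d-3 and 1496 in control-2, inside the range of 544 to 2709 FPKM of the 11. Metallothionein-2 (contig_19364) had 215 FPKM in 0d-7d-2, 1409 in 30d-7d-1, 366 in 30d-28d-3 and 1033 in control-2, and 3.02 to 74.5 FPKM in the others, so it was also present in each of the others. The 7 shared high ferritins were thus near 0 FPKM in 11 libraries that each held at least 544 FPKM of contig_63.

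Several of the largest differences were in matrix and cell surface proteins. These families were also picked after their values were seen. Hemicentin-1 (First_Contig4785), an extracellular matrix protein in other animals, had 1489 FPKM in 0d-7d-2, 5606 in 30d-7d-1, 3608 in 30d-28d-3 and 6227 in control-2, and at most 3.10 FPKM in the 11. It was the only one of 13 tested hemicentins that was shared high (7.69%, beside 1.53% of all tested). Of 24 agrins, which are heparan sulfate proteoglycans in other animals, 4 were shared high (16.7%). The summed FPKM of all 24 overlapped, at 1307 to 3597 in the 4 and 69.3 to 1777 in the 11. contig_399852 had 1455 FPKM in 0d-7d-2, 454 in 30d-7d-1, 434 in 30d-28d-3 and 761 in control-2, with at most 1 read in any other library. First_Contig3997 had 1126 FPKM in 0d-7d-2, 447 in 30d-7d-1, 329.6 in 30d-28d-3 and 562 in control-2, and at most 0.391 FPKM in the 11. Both agrins were highest in 0d-7d-2, the library in which destabilase was lowest.

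A tyrosinase domain protein (First_Contig1120), of a copper enzyme family used in melanin and cuticle formation, had 337 FPKM in 0d-7d-2, 849.8 in 30d-7d-1, 369 in 30d-28d-3 and 771 in control-2. In the 11 it had at most 1.59 FPKM, and it was the only tested unigene of that name. Of 84 tetraspanins, membrane scaffold proteins, 5 were shared high (5.95%, beside 1.53% of all tested). The most abundant were contig_45073 at 192 to 593 FPKM and contig_11393 at 187 to 423 FPKM, against 4.96 to 27.4 and 2.17 to 16.02 FPKM in the 11. Of the delta-like proteins, ligands of the Notch receptor, 4 of 24 were shared high, led by First_Contig4670 at 80.4 to 539 FPKM against at most 5.27 FPKM. Protein disulfide-isomerases, which fold secreted proteins in the endoplasmic reticulum, had 8 of 22 (36.4%). Summed FPKM overlapped for the delta-like proteins, at 264.8 to 1815 in the 4 and 68.2 to 2715 in the 11. It separated the 4 for tetraspanins (2214 to 3106 against 821.6 to 2037) and disulfide-isomerases (1607 to 2050 against 188.3 to 413). contig_9499 (protein disulfide-isomerase A6) had 599 FPKM in 0d-7d-2, 456 in 30d-7d-1, 434 in 30d-28d-3 and 395 in control-2, against 0 to 36.6 FPKM. The 4 members were closer to each other in this unigene than in any shared high destabilase, chitinase or ferritin.

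**Figure D3:**
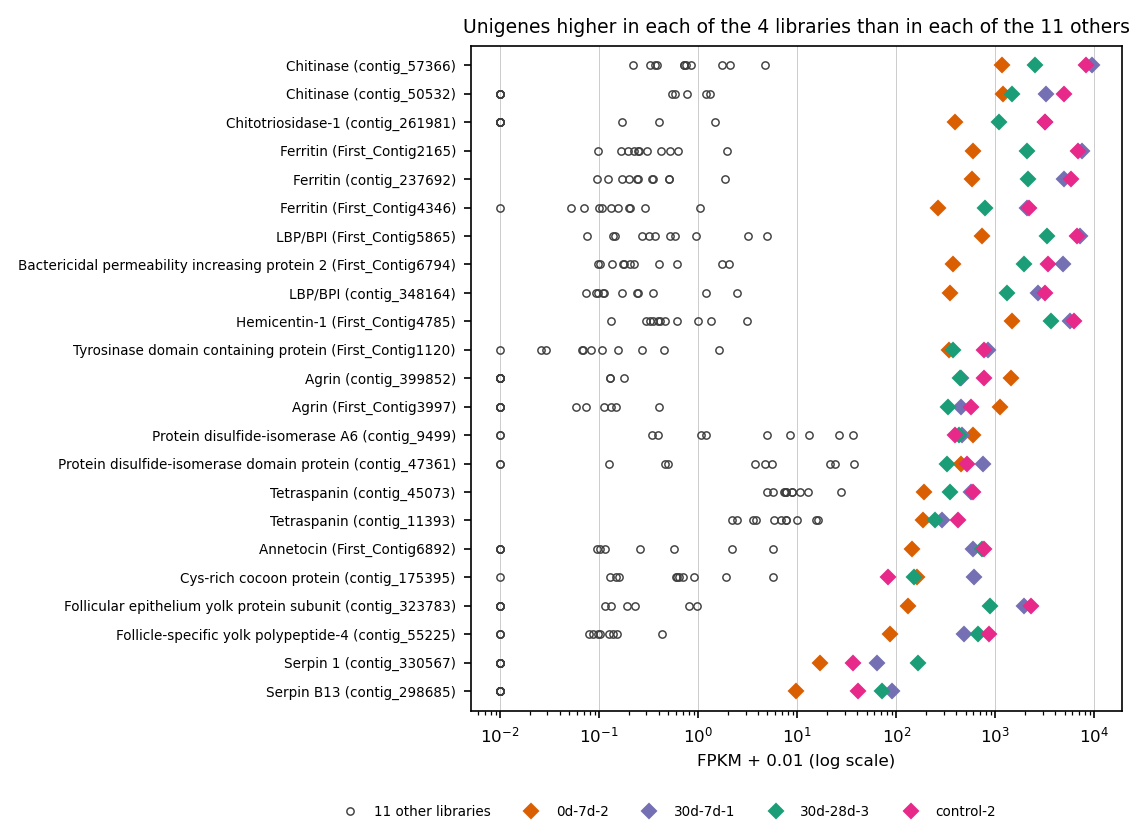
FPKM plus 0.01 on a log axis for 23 shared high unigenes named in the text, with diamonds for the 4 libraries and open circles for the 11 others (circles at the left edge are libraries at 0 FPKM). The orange diamond of 0d-7d-2 is the lowest of the 4 for chitinases, ferritins, LBP/BPI and yolk polypeptides and the highest for both agrins.

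Proteins of reproduction had the highest share of the 25 lists, which were chosen with earlier results known, so this ranking is a description. Some families picked after their values were seen, such as LBP/BPI proteins, had a higher share. Of 14 tested yolk, cocoon and reproductive hormone unigenes 5 were shared high (35.7%, beside 1.53% of all tested), and 8 were above both mates in every triplet (57.1%, beside 5.38%). The share of 35.7% was near the 34.6% of the chloragogen-type list and the 33.3% of chitinases. Annetocin, the oxytocin and vasopressin family peptide of *Eisenia fetida* that induces egg-laying behavior in worms and leeches, stood at the head of the list. Its unigene First_Contig6892 had 144 FPKM in 0d-7d-2, 594 in 30d-7d-1, 729.7 in 30d-28d-3 and 775 in control-2, and between 0 and 5.71 FPKM in the 11, with a median of 0.091. Of 5 annetocin receptor unigenes 3 were shared high at low levels, and the highest of them, contig_349155, had 0.304 FPKM in 0d-7d-2, 2.83 in 30d-7d-1, 2.31 in 30d-28d-3 and 3.35 in control-2, against at most 0.227 FPKM. With 13 reads in 0d-7d-2 and 9 in 30d-7d-2, it was not separated by more than counting error. Another, contig_393297, had at least 12 reads in a member and at most 5 elsewhere. These 3 receptors are among the 5 shared high unigenes of the list.

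A cysteine-rich cocoon protein (contig_175395), matched to a structural protein of the leech cocoon, had 161 FPKM in 0d-7d-2, 614 in 30d-7d-1, 151 in 30d-28d-3 and 81.6 in control-2. In the 11 it had at most 5.61 FPKM. A second one, contig_30375, had 17.3 to 39.1 FPKM in the 4 and 6.95 to 54.4 FPKM in the 11, and so overlapped. Unigenes matched to yolk polypeptides of moth ovarian follicles, a group picked after its values were seen, had 2 shared high of 12 (16.7%). The summed FPKM of all 12 overlapped, at 239.4 to 3219.7 in the 4 and 19.87 to 288.3 in the 11. contig_323783 had 131 FPKM in 0d-7d-2, 1932 in 30d-7d-1, 876 in 30d-28d-3 and 2315 in control-2, and contig_55225 had 86.6 FPKM in 0d-7d-2, 485 in 30d-7d-1, 671 in 30d-28d-3 and 864 in control-2, and neither passed 0.964 FPKM in any other library. A vitellogenin receptor unigene (contig_10819), which takes up yolk in the oocyte, had 16.2 FPKM in 0d-7d-2, 90.9 in 30d-7d-1, 18.7 in 30d-28d-3 and 15.4 in control-2, and 10.01 to 23.1 FPKM in the others. It was high in 30d-7d-1 alone. Germ line proteins had 0 shared high of 15 tested, which is near the 1.53% of all tested. Of these 15, 7 were above both mates in every triplet (46.7%, beside 5.38% of all tested). Piwi-like protein contig_53471 had 11.3 FPKM in 0d-7d-2, 30.1 in 30d-7d-1, 25.98 in 30d-28d-3 and 21.3 in control-2, and 6.24 to 23.5 FPKM in the others.

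**Figure D4:**
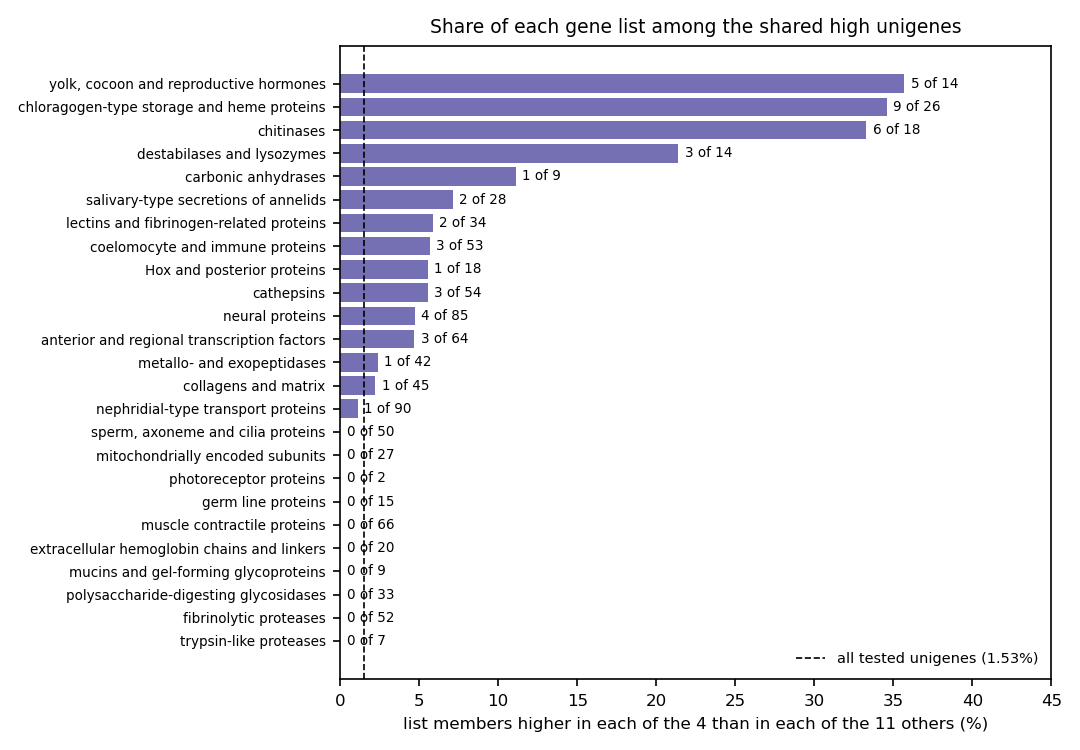
For each list of protein names, the percentage of its tested unigenes that were higher in each of the 4 libraries than in each of the 11 others, with the count beside the bar. The dashed line marks the 1.53% of all tested unigenes, and 10 lists, among them muscle, globin and fibrinolytic protease, hold 0.

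Proteases and their inhibitors divided in the same manner. Of 54 cathepsins, lysosomal proteases, 3 were shared high (5.56%, beside 1.53% of all tested). Cathepsin L (contig_206399) had 158 FPKM in 0d-7d-2, 261 in 30d-7d-1, 154 in 30d-28d-3 and 335 in control-2, against at most 2.17 FPKM, while the abundant cathepsin contig_1053 had 219.9 to 469 FPKM against 134 to 648 FPKM. A pair of serpins, inhibitors of serine proteases, had 0 reads in all 11 others, which allows up to 3 reads in each. Serpin 1 (contig_330567) had 17.03 FPKM in 0d-7d-2, 64.2 in 30d-7d-1, 164 in 30d-28d-3 and 36.1 in control-2, with at least 46 reads in a member. Serpin B13 (contig_298685) had 9.80 FPKM in 0d-7d-2, 90.3 in 30d-7d-1, 72.3 in 30d-28d-3 and 41.4 in control-2, with at least 25 reads. Apart from proteases and inhibitors, 12 of 108 unigenes named SCBP after *Lumbricus terrestris* proteins were shared high (11.1%). The summed FPKM of all 108 overlapped, at 1238.6 to 2411.5 in the 4 and 154.8 to 3302 in the 11. The leading shared high one by level, First_Contig5048, had 86.6 FPKM in 0d-7d-2, 330.3 in 30d-7d-1, 299 in 30d-28d-3 and 239 in control-2, against at most 0.357 FPKM. Some abundant shared high unigenes had no informative name. The highest, contig_324611, had 1288 FPKM in 0d-7d-2, 15573 in 30d-7d-1, 4470.1 in 30d-28d-3 and 15689 in control-2, and at most 10.5 FPKM in the 11.

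Trypsin-like proteases were high in 3 of the members and not in 0d-7d-2. None of 52 fibrinolytic proteases, 7 trypsin-like proteases or 33 glycosidases was shared high, where 1.53% of all tested unigenes were, so counts of 0 in lists of this size are near the background. The summed level of the trypsin-like list was 11.03 FPKM in 0d-7d-2, 143 in 30d-7d-1, 166 in 30d-28d-3 and 189 in control-2, and 7.18 to 20.9 FPKM in the 11. Thus 0d-7d-2 lay within the range of the others and the remaining 3 members lay above it.

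A set of 3 unigenes, described after their values were seen, carried most of that sum. A trypsin-like serine peptidase 3 with CUB and LDL domains (First_Contig5692) had 0 FPKM in 0d-7d-2, 61.3 in 30d-7d-1, 99.1 in 30d-28d-3 and 91.5 in control-2. Chymotrypsinogen B unigenes, named for the precursor of a digestive protease, had the same form, contig_461168 with 0 FPKM in 0d-7d-2, 30.4 in 30d-7d-1, 16.4 in 30d-28d-3 and 10.96 in control-2 and contig_516481 with 0.113 FPKM in 0d-7d-2, 35.4 in 30d-7d-1, 22.2 in 30d-28d-3 and 41.2 in control-2. No library of the 11 held more than 1 read of any of the 3, and 0d-7d-2 held 0, 0 and 1. A trypsin-like serine peptidase 1 (First_Contig275) had 2.06 FPKM in 0d-7d-2, 0.613 in 30d-7d-1, 13.8 in 30d-28d-3 and 35.4 in control-2 and at most 0.954 FPKM in the 11, with 30d-7d-1 in their range.

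Lumbrokinase-7T1 (contig_150), a fibrinolytic enzyme of the earthworm gut, had 6.14 FPKM in 0d-7d-2, 2769.8 in 30d-7d-1, 542 in 30d-28d-3 and 699.8 in control-2, and 1.12 to 17735 FPKM in the 11. Fibrinolytic protease 1 (contig_69) had 2.23 FPKM in 0d-7d-2, 979.9 in 30d-7d-1, 315 in 30d-28d-3 and 393 in control-2, and 0.979 to 15475 FPKM in the 11. In both, 30d-7d-1, 30d-28d-3 and control-2 lay between the median and the highest of the 11, and 0d-7d-2 lay below that median. None of 66 muscle contractile, 20 extracellular hemoglobin, 50 sperm and cilia, 27 mitochondrially encoded or 9 mucin unigenes was shared high. Beside 1.53% of all tested unigenes, counts of 0 in lists of this size are near the background. The summed FPKM of the hemoglobin list was 4771 to 9903 in the 4 and 17.9 to 27808 in the 11. The summed muscle list was 2320 to 4799 FPKM in the 4 and 1893 to 19717 FPKM in the 11. All 4 members were within the range of the others in both of these sums.

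Salivary-type secretions known from leeches had 2 shared high of 28 (7.14%, beside 1.53% of all tested), and these were the 2 serpins. Antistasin-like protein contig_4205, of a leech anticoagulant family, had 278 to 617 FPKM in the 4 and 4.04 to 1262 FPKM in the 11. The lists of lectins with 2 of 34, carbonic anhydrases with 1 of 9, collagens with 1 of 45, metallo- and exopeptidases with 1 of 42 and nephridial transport proteins with 1 of 90 had shares of 5.88%, 11.1%, 2.22%, 2.38% and 1.11%, beside 1.53% of all tested, and the last 3 were near it. The glutamyl aminopeptidase among them (contig_11484) had 28.7 to 73.6 FPKM in the 4 and at most 21.8 FPKM in the 11. Over all 101090 tested unigenes the median log2 ratio of the median FPKM of the 4 to that of the 11, with 1 FPKM added to each, was 0.03. It was 2.91 for chitinases, 2.52 for trypsin-like proteases, 1.22 for destabilases and lysozymes, 1.08 for the yolk and cocoon list, 1.05 for fibrinolytic proteases, 0.37 for the chloragogen-type list, 0.16 for muscle and -0.37 for hemoglobin.

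Among the axis genes, 1 Sex combs reduced unigene was high in the 4, and no read of the posterior Cdx unigene contig_206632 was found in them. Of 18 tested Hox, Cdx and Caudal unigenes 1 was shared high (5.56%, beside 1.53% of all tested) and 1 shared low (beside 0.126% of all tested). Sex combs reduced, a Hox gene of anterior segments, was the high one. Its unigene contig_2031 had 25.2 FPKM in 0d-7d-2, 35.97 in 30d-7d-1, 45.05 in 30d-28d-3 and 25.8 in control-2, against 1.95 to 7.51 FPKM in the 11 with a median of 3.31. The other two unigenes of the same name overlapped, and the more abundant, contig_19015, had 0.864 to 2.08 FPKM against 0.311 to 4.49 FPKM.

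Cdx (contig_206632) was the low one, at 0 FPKM in all 4 members and 0.072 to 15.8 FPKM in the 11, with a median of 1.63. A count of 0 allows up to 3 reads, and 0d-28d-2 and 0d-28d-3 held 3 each, so the members were not separated from these by more than counting error, while the other 9 libraries held 13 to 838. Caudal (contig_43619) had 0.129 FPKM in 0d-7d-2, 0 in 30d-7d-1, 0.155 in 30d-28d-3 and 0.155 in control-2, against a median of 1.18 and a maximum of 3.04 FPKM in the 11, the lowest of which stood at 0. Post2 (contig_107470) had 0.072 FPKM in 0d-7d-2, 0.155 in 30d-7d-1, 0.023 in 30d-28d-3 and 0.055 in control-2, and 0.041 to 8.27 FPKM in the 11 around a median of 2.31. The Post2 unigene with the highest level, contig_55909, had 1.29 to 2.74 FPKM in the 4 and a median of 4.11 FPKM in the 11, and overlapped with them. Antennapedia (contig_51338), a Hox gene of the middle body in arthropods, had 2.54 to 4.19 FPKM against 1.15 to 3.56 FPKM and did not separate. Labial (contig_24009), an anterior Hox gene, had 1.41 to 3.78 FPKM against 0.689 to 4.29 FPKM. The members were thus high in 1 of 3 Sex combs reduced unigenes, without reads of the Cdx unigene, and within the range of the others for labial. The Caudal unigene contig_43619, of the same type as Cdx, did have reads in members, 5 in 0d-7d-2, 9 in 30d-28d-3 and 7 in control-2.

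**Figure D5:**
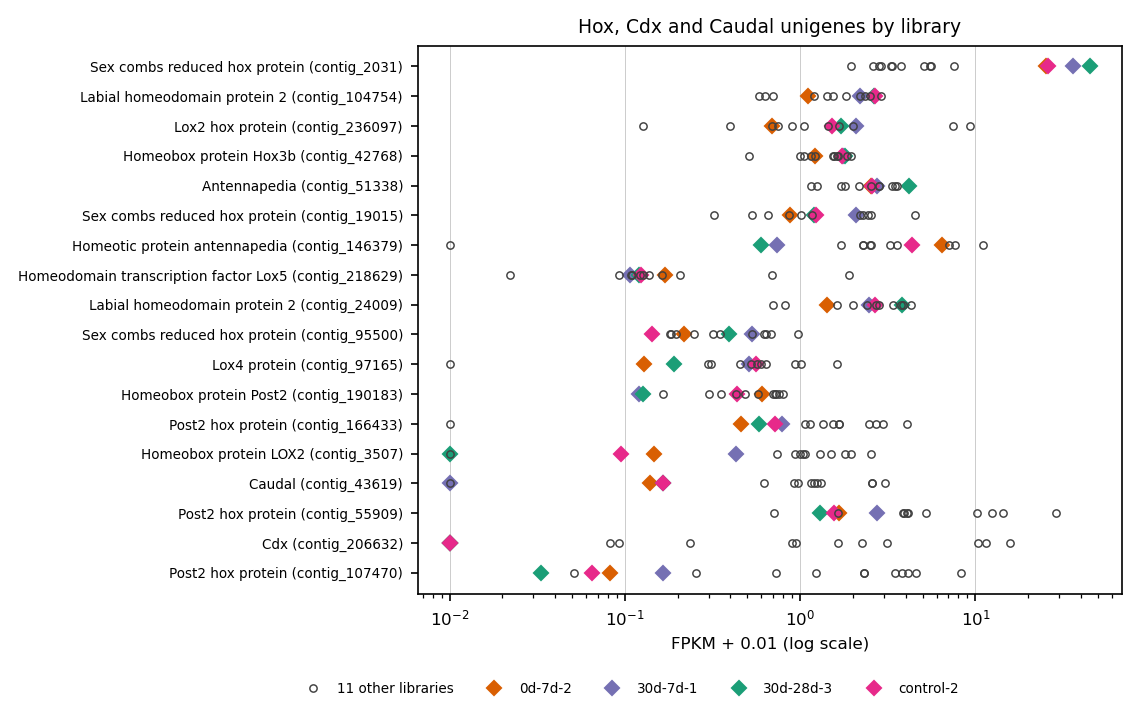
FPKM plus 0.01 on a log axis for the 18 tested Hox, Cdx and Caudal unigenes, ordered by the ratio of medians, with diamonds for the 4 libraries and open circles for the 11 others. Sex combs reduced (contig_2031) is right of all circles, and Cdx (contig_206632) has all 4 diamonds at 0 FPKM on top of each other.

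Of the neural list 4 of 85 tested unigenes were shared high (4.71%, beside 1.53% of all tested). The secretory chaperone 7B2 (contig_52346), which helps to process neuropeptides, had 55.2 FPKM in 0d-7d-2, 50.6 in 30d-7d-1, 40.8 in 30d-28d-3 and 46.6 in control-2, against 9.81 to 18.4 FPKM in the 11. Synaptotagmin 16 (contig_150340), of a family of membrane trafficking proteins, had 1.92 FPKM in 0d-7d-2, 14.3 in 30d-7d-1, 9.98 in 30d-28d-3 and 25.9 in control-2, against at most 0.271 FPKM. The neuropeptide precursor LYamide/FDSIG (contig_13546) had 109.6 FPKM in 0d-7d-2, 230.2 in 30d-7d-1, 419 in 30d-28d-3 and 396 in control-2, above both mates in every triplet but overlapping with the 11, which reached 119 FPKM. Of regional transcription factors 3 of 64 were shared high (4.69%), all at under 3 FPKM, and the one with the highest median was araucan (contig_241199) at 1.47 to 2.998 FPKM against at most 1.005 FPKM.

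Only 127 unigenes, 0.126% of the tested, were lower in each member than in each of the 11, and 11 of them had an informative name. Dachshund (contig_3118), a transcription factor of appendage and nervous system development in insects, had 0.147 FPKM in 0d-7d-2, 0.184 in 30d-7d-1, 0.082 in 30d-28d-3 and 0.078 in control-2, against 0.217 to 4.72 FPKM. Cubilin (contig_30790), an endocytic receptor of absorptive epithelia, had 0.377 to 0.915 FPKM against 1.15 to 4.58 FPKM. Cathepsin C (contig_56868) and integrin alpha-PS2 (contig_62826) were the 2 named shared low unigenes with at least 5 FPKM in every other library. They had 4.44 to 5.70 against 6.22 to 23.7 FPKM, and 2.75 to 4.93 against 5.55 to 18.4 FPKM. The margin between the highest member and the lowest of the others was narrow in these 4. Leaving out a library can only add to this count. It was 385 without 30d-7d-1, 354 without 0d-28d-3, 350 without 0d-7d-2, 282 without control-2, 240 without 30d-28d-3 and 203 without 0d-28d-2.

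The 4 members were not alike in all of these unigenes. Over the 653 with at least 5 FPKM in each member, 0d-7d-2 was the lowest for 373 (57.1%), and its median ratio to the middle value of the other 3 was 0.68, with quartiles of 0.356 and 1.03. control-2 was the highest for 236 (36.1%) and 30d-7d-1 for 205 (31.4%). The highest member was a median of 2.55 times the lowest, with quartiles of 1.68 and 4.88, and for 66 unigenes it was over 10 times. Without 0d-7d-2 the shared high unigenes numbered 2777. Leaving out a member can add shared high unigenes and cannot remove one. The yolk and cocoon list had 7 without 0d-7d-2, and the counts of 6 chitinases, 3 destabilases and 9 on the chloragogen-type list gained none without any single member.

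The level of 0d-7d-2 relative to the other members differed between unigenes, also within families. Its ratio to the median of the other 3 members had a median of 0.0775 over the 3 destabilases (0.0454 to 0.0797), 0.107 over the 7 ferritins (0.0723 to 0.155), 0.121 over the 6 chitinases (0.0646 to 0.371) and 0.0984 over the 2 moth yolk polypeptides (0.0677 to 0.129). The 5 tetraspanins had a median of 0.48 (0.257 to 1.13), the 8 disulfide-isomerases 1.08 (0.197 to 2.26) and the 4 agrins 2.57 (1.14 to 3.20). The 7 LBP/BPI proteins had a median of 0.239 and ran from 0.109 to 8.67, a range that overlapped with all of these groups except the destabilases. Relative to the middle of the other 3, 0d-7d-2 was thus lower in each of the 3 destabilases, 7 ferritins and 6 chitinases and higher in each of the 4 agrins.

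Mitochondrial NADH dehydrogenase subunit 4 was split over several unigenes, and the members differed in which of them was the most abundant. contig_149 had 3415 FPKM in 0d-7d-2, 2182 in 30d-7d-1, 794 in 30d-28d-3 and 100.1 in control-2. contig_60 had 428 FPKM in 0d-7d-2, 292 in 30d-7d-1, 3730.4 in 30d-28d-3 and 212 in control-2. contig_89 had 2243 FPKM in 0d-7d-2, 1752 in 30d-7d-1, 596 in 30d-28d-3 and 4409 in control-2. 30d-28d-3 was thus the highest of the 4 in contig_60, control-2 in contig_89 and 0d-7d-2 in contig_149. Another unigene of the name, contig_2661, was at 1512 to 3370.4 FPKM in all 4 members.

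Among the 11, the highest library for the 653 unigenes was most often 0d-28d-3 (146 unigenes, 22.4%) and 0d-28d-2 (110 unigenes, 16.8%), both of the one triplet without a member. The median FPKM of the 653 was between 0.931 in control-1 and 2.85 in 0d-28d-3. By rho over all tested unigenes 0d-28d-3 was far from the members, at 0.589 to 0.604, whereas 0d-28d-2 and 30d-28d-1 reached 0.698. The same library was far from the others too, at 0.627 with control-1, its closest, and 0.539 with 0d-7d-3. Without 0d-28d-3 the shared high unigenes numbered 2036.

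The labelled conditions were compared with edgeR in 1 fit of the 5 triplets. The members are 1 high library in each of 4 triplets, which by itself widens the spread within triplets and brings their means together for the 1551, so few calls among them were fixed by the choice and nothing is read from their number. edgeR's quasi-likelihood F test with Benjamini-Hochberg adjustment called 1 of 101090 unigenes (0.000989%) across the 5 triplets, and none of the 1551 shared high ones. Of these, 3 had an unadjusted p under 0.05 (0.193%, beside 6.07% of all tested), and a DESeq2 likelihood ratio test called 0 of the 1551 and 1033 of all.

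Each triplet against control likewise gave edgeR 1 call (0.000989%) and none among the 1551. Before adjustment, edgeR's p fell under 0.05 for 46 of the 1551 in 0d-28d, beside 8438 of all 101090 tested. Counts in the remaining contrasts were 3 beside 3537 in 30d-7d, 2 beside 4353 in 30d-28d and 1 beside 4796 in 0d-7d. DESeq2 called 1 of the 1551 in 0d-28d, beside 856 of all tested. It called 0 of them in each of the rest, beside 302 in 30d-7d, 406 in 30d-28d and 333 in 0d-7d. The 4 contrasts share the control libraries, and control holds control-2. The 1 of the 1551 that DESeq2 called was contig_198268, which has no protein match. It had 8.003 FPKM in control-2, 1.65 in 0d-7d-2, 1.07 in 30d-7d-1 and 1.90 in 30d-28d-3. The median log2 change of the 1551 against control was -1.84 in 0d-28d, which holds no member, -0.78 in 0d-7d, -0.20 in 30d-7d and -0.06 in 30d-28d, where the medians of all tested unigenes were 0.00, -0.04, -0.03 and -0.04. The choice of members favors a negative change for 0d-28d, where 1403 of the 1551 had one, so its sign is no result about exposure.

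On the question of a body region, the shared high unigenes were 1.53% of all tested. They held 6 of 18 chitinases, 3 of 14 destabilases and lysozymes, 7 of 14 ferritins and 7 of 12 LBP/BPI proteins. In reproduction, 1 of 2 annetocin, 1 of 3 cocoon protein, 2 of 12 yolk polypeptide and 0 of 15 germ line unigenes were shared high. Also shared high were 8 of 22 disulfide-isomerases, 12 of 108 SCBP unigenes, 5 of 84 tetraspanins and 1 of 13 hemicentins. Agrins and delta-like proteins had 4 of 24 each, and Sex combs reduced had 1 of 3. The Cdx unigene contig_206632 had 0 reads in the 4. The Caudal unigene contig_43619, of the same type, had 5 in 0d-7d-2, 9 in 30d-28d-3 and 7 in control-2. The summed muscle and hemoglobin lists overlapped with the other libraries, and the trypsin-like sum was above them in 3 of the 4. Which stretch of the body each section held is not given by the labels, and its part in the result was not tested.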

How the data were processed

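The deposited table gives, per the file headers, a read count and an FPKM value for each unigene and library, with a best protein match for 58313 of 241846 unigenes. The authors made both units. Which programs assembled, aligned and counted is not given in the sources used here, and no genome was used. FPKM was 0 exactly where the count was 0.

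Levels are FPKM as deposited. Shared high and shared low unigenes were counted over the 101090 that passed edgeR's filterByExpr (minimum count 10, minimum total 15). Ratios of medians used FPKM plus 1. Conditions were compared on the counts with edgeR 4.0.16 (TMM, quasi-likelihood F tests, 1 fit of 5 triplets, two-sided, Benjamini-Hochberg threshold 0.05, 10 residual degrees of freedom), with DESeq2 1.42.0 beside it. The common biological coefficient of variation was 0.923. The scripts were tested on simulated data. The labels do not say that replicate numbers pair libraries.

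The members and all lists were chosen with earlier results of these data known. The 25 lists are patterns on protein names, from which false matches were removed after the names were read, and 15 name families were added after their values were seen. Named unigenes were drawn from the destabilases and lysozymes and from leading shared high ones. The latter had at least 5 FPKM in each member and an informative name, and led by ratio (20) or by median (10). Also drawn on were 3 unnamed ones by each, the shared low ones, and the most abundant and up to 3 shared high ones of each list. Not all of these are printed. The SCBP, tetraspanin, delta-like and disulfide-isomerase unigenes, all Hox and trypsin-like unigenes, the receptors and the mitochondrial unigenes were added after their values were seen.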

Additional observations from a re-analysis of the deposited data

How the results depend on the processing

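Of the 1551 shared high unigenes 1364 were also shared high by TMM-scaled CPM, which called 1417, and of the 127 shared low ones 113 were. With a mean of at least 5 FPKM the shared high unigenes numbered 607, the shared low ones 44 and those above both mates in each triplet 2077. Against the 8 other libraries of the same triplets alone there were 2753 shared high and 754 shared low. Without 1 library the shared high count was 1581 to 2777 and the shared low count 145 to 385. Likeness among the 4, a mean rho of 0.726, was 0.787 as Pearson's r of log2(FPKM + 1) and 0.627 with a mean of at least 5 FPKM. edgeR without a filter called 2 unigenes across triplets, 2 in 0d-7d and 2 in 30d-28d against control. DESeq2 called 1033 across triplets, 302 between 30d-7d and control, 333 between 0d-7d and control, 406 between 30d-28d and control and 856 between 0d-28d and control. Without 1 library edgeR called 1 to 2 across triplets and, against control, 0 to 3 for 0d-28d, 0 to 1 for 30d-7d and 0 to 2 in the other contrasts. Leaving out a library, or comparing with 8 others in place of 11, can only add shared high and shared low unigenes. The cause of the other shifts was not tested. Of 209 ratios of medians of lists and named unigenes, 168 moved by less than the spread among the 4 under TMM-scaled CPM and 41 moved by more, and no shared high or shared low unigene changed sign. Depth limits the low side: 287 shared high unigenes had at most 3 reads in each of the 11 others, so counting error leaves their ratios uncertain.

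As for pairing, same-numbered libraries of different triplets deviated together (r over 0.1) in 3 of 30 pairs, with r from -0.332 to 0.32, and 3 of 15 libraries correlated best with their own number. The replicate block left 1 call across triplets, 0 in 0d-7d and 1 in each of the other contrasts with control.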

Other observations

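Some shared high unigenes without an informative name had 0 reads in all 11 other libraries, which allows up to 3 reads in each. contig_24063, with no protein match, had 37.9 FPKM in 0d-7d-2, 237 in 30d-7d-1, 143 in 30d-28d-3 and 114 in control-2. contig_258733 had 104 FPKM in 0d-7d-2, 44.5 in 30d-7d-1, 70.3 in 30d-28d-3 and 20.3 in control-2, and contig_36461 had 123 FPKM in 0d-7d-2, 31.2 in 30d-7d-1, 36.4 in 30d-28d-3 and 92.9 in control-2, and in both of these 0d-7d-2 was the highest member. Of the 653 shared high unigenes with at least 5 FPKM in each member 16 had no read in any of the 11. Among the most abundant unnamed ones, First_Contig3865 had 838 FPKM in 0d-7d-2, 10356 in 30d-7d-1, 2053 in 30d-28d-3 and 7217 in control-2, and at most 4.11 FPKM elsewhere, and First_Contig1754 had 1209.8 FPKM in 0d-7d-2, 5550.0 in 30d-7d-1, 3346 in 30d-28d-3 and 5385 in control-2, and at most 3.40 FPKM elsewhere.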
